A study of Mus musculus with 4 samples.

Results

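The sites described here are positions in mouse transcripts, nearly all of them of protein-coding genes, that the deposited table lists as unconverted after bisulfite treatment in both Tet2 knockout (KO) libraries of a leukemia cell study, and that stood apart from other such positions. Where the reference base could be read (62 sites), most but not all of them were at a cytosine. They were chosen by 4 criteria: a gene label on a chromosome, a call in both KO replicates, a mean of at least 30 covering reads, and, on its own strand, no further listed position within 10 nt. Of 506952 listed positions, 6979 met all of them, which is 1.38% of the list. The criteria were met in steps: 505648 positions lay on chromosomes, 479836 of these had a gene label, 68697 were called in both replicates, and 16069 of those reached 30 covering reads. The remaining 9090 of these 16069 had a listed neighbour within 10 nt and are called clustered sites below.

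The study used cultured mouse NRAS/AE9a cells, a myeloid leukemia line that carries NRAS and AE9a, a shortened AML1-ETO fusion protein. Poly(A) RNA was bisulfite-converted and sequenced from 2 WT and 2 Tet2 KO libraries, and both genotypes grew in RPMI medium with 50 ng/ml of SCF, 10 ng/ml each of IL-6 and IL-3, 2 µg/ml of puromycin and 1 mg/ml of G418. The labels do not say how Tet2 was deleted, whether a line was 1 clone, or whether the replicates came from different cultures. The spread between them may therefore be technical. Neither WT values nor values of a single library have a column in the table used here (0 of each). No KO library could therefore be set against WT, and all levels below are those of the KO cells. By its name the table holds positions unique to KO, so positions also called in WT may be missing from all counts given here. How unique positions were decided is not stated in the sources used here.

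In RNA, 5-methylcytosine is laid down by methyltransferases such as NSUN2 and read by proteins such as ALYREF and YBX1. TET2 is a dioxygenase that oxidises 5-methylcytosine in DNA and also in RNA. Bisulfite converts unmethylated cytosine to uracil and leaves 5-methylcytosine in place, so a cytosine that remains in a read counts as unconverted, and incomplete conversion is counted the same way. The level of a site is the fraction of unconverted reads among the reads used for it. The levels of both replicates follow from the deposited mean and SD, but the table does not say which replicate had which value.

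The sequence of 62 of the 6979 sites could be read from RefSeq promoter and hairpin sequences of build GRCm38.p6, the assembly that mm10 names. These sites therefore lie close to the start of a RefSeq gene, or in a hairpin, but often not near the start of the gene they are labelled with. The windows below show 21 bases on the strand of the site, 5′ to 3′, with the listed position in capitals, for the 9 sites with the highest levels among those with a reference cytosine and a complete window. Muc13 (level 0.969) had no complete window and is not shown.
Rack1, chr11:48800378-48800398: gtggtggcagCcgctgtggtg
Sf1, chr19:6363940-6363960: ccgcccgccgCgtgagaggac
Phospho2, chr2:69789752-69789772: ccgctgcgacCcaggcctggg
Sod1, chr16:90220787-90220807: cgtccgtcggCttctcgtctt
Cpsf3, chr12:21286439-21286459: aatttagagaCtgcggcgacg
Lyar, chr5:38220590-38220610: gtgctcccggCggccggttga
Ndufb7, chr8:83566766-83566786: caggtgggagCgaggtgaccc
Tsr3, chr17:25240351-25240371: cgctgcgctgCgtggtgagtt
Mrpl55, chr11:59202595-59202615: ctcagtttccCacctatcgag

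A second set of windows is shown because the reference base at the listed position was not cytosine. Here too the listed position is in capitals and the strand is that of the site.
Brk1, chr6:113604789-113604809: aagaggatccGgtgcagcggg
Zfp384, chr6:125009485-125009505: cgccgccgccGcctggtgagt
Siva1, chr12:112644923-112644943: ggcgcgctgcGcgctgctgaa
Ubxn4, chr1:128244434-128244454: cgacacaccgAgcgagcgcct
Slirp, chr12:87444016-87444036: cgcggcagcgAgtgagtgatg
Eps15, chr4:109343307-109343327: accttaaagaGaaggaagaca
Prelid1, chr13:55322064-55322084: acctgggcgcGgtcctgcgga

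Of the 62 sites with a known base, 48 were at a cytosine (77.4%, exact 95% interval 65 to 87.1%), 9 at a guanine, 5 at an adenine and 0 at a thymine. Over all listed positions with a known base, 3270 of 6183 were at a cytosine (52.9%), 1821 at a guanine (29.5%), 1092 at an adenine (17.7%) and 0 at a thymine. Among the 62 sites, thymine made up 14.5% of the bases before the listed position and 21.3% of those after it, so its absence belongs to the listed position itself. Of the 59 clustered sites with a known base, 43 were at a cytosine (72.9%). These 62 and 59 sites come from promoter and hairpin windows, and the base at the other sites was not analysed here.

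The base went with how many covering reads had been used for the level. Reads used are the unconverted reads divided by the level. At the 48 sites with a reference cytosine they were 19.6% to 61.2% of the covering reads, and at the 14 sites with a reference adenine or guanine 76.3% to 89.5%, so the ranges did not overlap. Across all listed positions with a known base, 2067 of 2067 with under 70% of their reads used were at a cytosine, against 1203 of 4116 with 70% or more. The lowest share at a listed adenine or guanine was 70.4%. Because the 70% boundary was chosen after the values were seen, the 2067 of 2067 is a description only. No source used here says what separates the covering reads that were used from the others.

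The same split ran through the whole set of 6979 sites. The share of covering reads used had a median of 46.8% (quartiles 34.0% and 80.7%) and 2 peaks: 1729 sites lay between 30% and 40%, 305 between 60% and 70%, and 1862 between 80% and 90%. Under 70% of the reads were used at 4649 sites (66.6%), and 70% or more at 2330 sites (33.4%). Of the 62 sites with a known base, 14 (22.6%) had 70% or more used. The cytosine share of 77.4% may therefore not hold for the whole set. The share under 70% was 60.4% at clustered sites and 28.9% over all listed positions. Levels are given below for both groups, because the base could be read in only 62 sites, and the medians of gene lists pool them. Isolated and clustered sites with a known base held 91 cytosines, all with under 70% of the reads used. They also held 30 adenines or guanines, all with 70% or more. At a site with 70% or more of the reads used and no known base, the reference base may therefore not be a cytosine. Its level may then not be a share of unconverted cytosines.

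**Figure D1:**
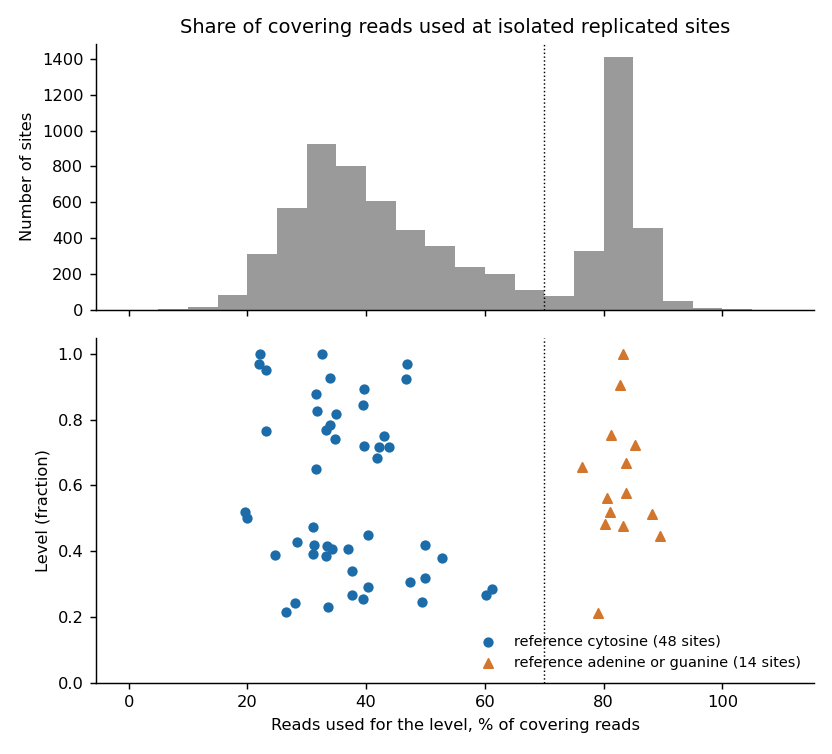
Reads used for the level as a percentage of covering reads. The upper panel counts the 6979 sites in steps of 5 percentage points, and the lower panel plots level (fraction) against the same axis for the 62 sites with a known reference base. Circles are 48 reference cytosines, all left of the dotted line at 70%, and triangles are 14 reference adenines or guanines, all right of it.

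Among the shown cytosine sites, Rack1, which encodes a scaffold protein of the small ribosomal subunit, had a level of 1.0 in both KO replicates. That level rested on 12 of 54 covering reads, at position 48800388 on the plus strand of chromosome 11, 29 nt into the gene. Sf1, a splicing factor that binds the branch point, was also at 1.0 in both replicates, from 13 of 40 reads at position 6363950 on chromosome 19. Sod1, the cytosolic superoxide dismutase, had replicate levels of 0.9 and 1.0 (0.95 ± 0.0707, SD, n = 2) from a mean of 9.47 reads used of 41. Both replicates of each of these genes were high, and each level rested on fewer than 14 reads.

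The gap between replicates differed among the other shown genes. Cpsf3, the endonuclease of the mRNA 3′ cleavage complex, had 0.856 and 1.0. Ndufb7, a subunit of respiratory complex I, had 0.786 and 1.0, the widest gap of the shown cytosine sites, and Mrpl55, a mitochondrial ribosomal protein, had 0.833 and 0.857. Lyar, a nucleolar protein, had 0.895 and 0.955 from 20.5 reads used, the most of these 9 sites. Over all 48 cytosine sites the level ran from 0.216 to 1 with a median of 0.486, on a median of 13.2 reads used.

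The sites at a reference adenine or guanine rested on more reads. Brk1, a small subunit of the WAVE actin regulator, was at 1.0 in both replicates from 30 of 36 reads, at position 113604799 on chromosome 6 and a reference guanine. Slirp, which stabilises mitochondrial mRNA, had 0.493 and 0.659 from 71.2 of 85 reads at a reference adenine. Prelid1, a mitochondrial lipid transfer protein, had 0.492 and 0.548 from 67.3 of 83 reads at a reference guanine. Over all 14 such sites the median level was 0.569 on a median of 42.3 reads used. A level at these positions is not a share of unconverted cytosines of the reference sequence.

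Local motifs were counted at the 44 cytosine sites with a full 21-base window. CNGGG, with its first C at the site, is known from NSUN2 targets, and CTCCA, with the site at any of its C's, from NSUN6 targets. Neither was found at these sites on their own strand (0 of 44 each, which allows a share of up to 8.04% by the exact interval). Over all 2965 listed cytosines with a full window, CNGGG was found in 3.84% and CTCCA in 1.08%, and over all 4949772 cytosines of the promoter windows in 2.95% and 2.02%. A following G, which makes a CpG, stood at 11 of the 44 sites (25%), at 28% of listed cytosines and at 15.5% of all promoter cytosines. The median GC content of the windows was 71.4% at the 44 sites, 66.7% at all listed cytosines and 57.1% at all promoter cytosines.

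The levels of all 6979 sites ran from 0.2, the lowest level in the table, to 1 with a median of 0.431 (quartiles 0.292 and 0.615). A level of at least 0.5 was reached at 2792 sites (40%) and of at least 0.8 at 623 (8.93%), while 1862 (26.7%) stayed under 0.3. Where under 70% of the reads were used, the median was 0.384 (quartiles 0.276 and 0.620), and where more were used it was 0.487 (0.356 and 0.609). The first group was spread toward both ends: it held 531 sites at 0.8 or above (11.4%) against 92 (3.95%), and 69 of the 70 sites at a level of 1. The remaining site at 1 was Brk1.

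**Figure D2:**
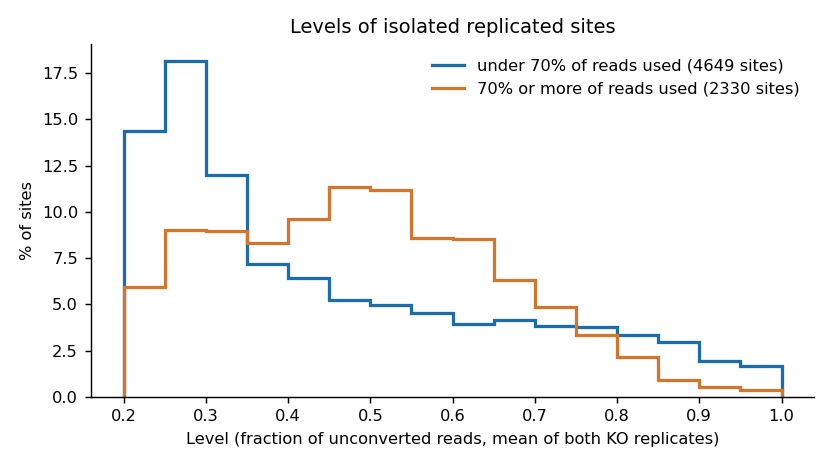
Levels of the 6979 sites in steps of 0.05, as a percentage of the sites of each group. The group with under 70% of the reads used (4649 sites) peaks between 0.25 and 0.3 and extends to 1, and the group with 70% or more (2330 sites) peaks between 0.45 and 0.55.

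A level of 1 was shared by the 70 sites counted above, and the 10 of them with the highest coverage, 1 per gene, are named here. They had 1.0 in both KO replicates on 12 to 15 reads used and lay in Cirh1a, Fbxl14, Aurkb, Arl2bp, Slc44a2, Rack1, Tysnd1, Copg1, Klhdc2 and Akirin2. The site of Aurkb, the mitotic Aurora B kinase, was at position 69045866 on chromosome 11 and used 14 of 64 reads. The site of Cirh1a, a factor of small-subunit ribosome assembly, was at position 106906401 on chromosome 8 and used 15 of 73 reads. Copg1, which encodes a coat protein of Golgi vesicles, used 12 of 53 reads at position 87895942 on chromosome 6. In these 10 genes, 17.4% to 27.5% of the covering reads had been used. At a level of 1 all reads used are unconverted, so choosing the deepest sites also favours low shares of reads used.

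In the group under 70%, high levels were those with few reads used. With under 12 reads used the median level was 0.55 and 250 of 1231 sites reached 0.8, whereas with 20 to 30 reads used the median was 0.281 and 4 of 730 did. With 30 or more reads used none of the 444 sites of that group reached 0.8. The unconverted reads had a median of 6 or 7 in each bin up to 30 reads used. Reads used were computed from the level, so at a near-constant number of unconverted reads the level falls with them by construction, and this trend is a description only. Where 70% or more of the reads were used, the medians for 20 to 30, 30 to 50 and 50 or more reads were 0.49, 0.489 and 0.476.

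In the group under 70% with at least 30 reads used, the highest level was at Gcg, which encodes the hormone precursor proglucagon. Its replicates had 0.536 and 0.57 (0.553 ± 0.024, SD, n = 2) from 45.2 of 85 reads, on chromosome 2 (minus strand, position 62478583). Next came Nop58, a core protein of box C/D small nucleolar particles, with 0.359 and 0.467 from 33.9 reads at position 59698368 on chromosome 1. Slc35a4, a member of a nucleotide sugar transporter family, had 0.273 and 0.545 from 31.8 reads, and Bap1, a histone H2A deubiquitinase, had 0.302 and 0.5 from 32.4 reads. The higher replicate of Slc35a4 was above the lower replicate of Gcg, so their replicates overlap.

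In the group with 70% or more, high levels rested on more reads. After Brk1 came Nomo1, an endoplasmic reticulum membrane protein, with 0.971 and 1.0 from 34.5 of 41 reads at position 46033876 on chromosome 7. Wipf2, which binds actin regulators of the WASP family, had 0.962 and 1.0 from 25.5 of 30 reads. Psmd14, the deubiquitinase of the proteasome, had 0.972 and 0.98 from 41 of 51 reads at position 61720450 on chromosome 2. Tnfaip2, a gene induced by tumor necrosis factor, had 0.957 and 0.959 from 47 of 56 reads at position 111445819 on chromosome 12. Replicates of Psmd14 and Tnfaip2 lay within 0.01 of each other.

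Coverage went with level in the same way. For 30 to 39, 40 to 49, 50 to 74, 75 to 99 and at least 100 covering reads, the median level in the group under 70% was 0.478, 0.387, 0.298, 0.258 and 0.250. In the group with 70% or more it was 0.494, 0.487, 0.476, 0.479 and 0.446. At 100 or more reads 1 of 87 sites of the first group was at 0.5 or above, against 41 of 98 of the second. Coverage was part of the selection, so these values are descriptions.

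**Figure D3:**
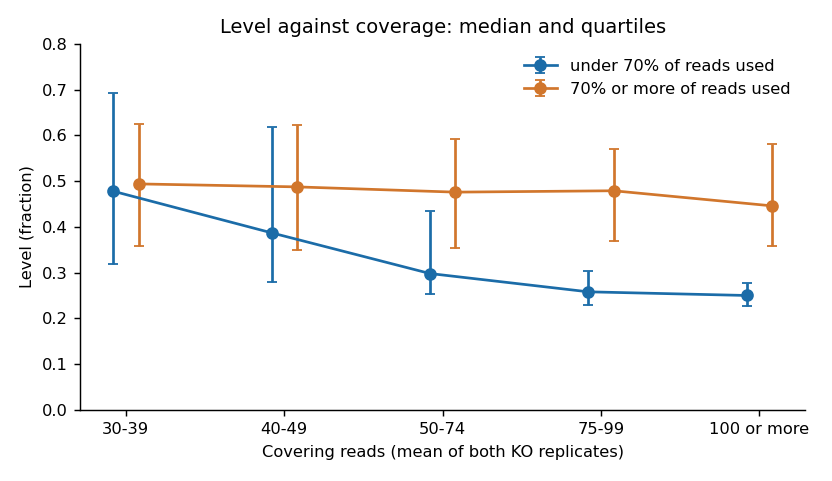
Median level (points) and quartiles (bars) of the sites in 5 ranges of covering reads, the mean of both KO replicates. The group with under 70% of reads used falls from 0.478 to 0.250, and the group with 70% or more stays between 0.494 and 0.446.

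The deepest site was in Gsn, which encodes the actin-severing protein gelsolin, at position 35295058 on chromosome 2. It had 297 covering reads, and its replicates had 0.483 and 0.485 (0.484 ± 0.00141, SD, n = 2). Stmn1, which encodes a protein that destabilises microtubules, had 0.592 and 0.61 at 214 reads, and Bsg, the lactate transporter chaperone basigin, had 0.36 and 0.388 at 226 reads. These 3 sites used 80.5% to 82.8% of their reads. The other 7 of the 10 deepest sites used 42.8% to 64.8%.

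Those 7 had low levels. Pabpn1, the nuclear poly(A)-binding protein, had 0.203 and 0.215 at 273 reads, at position 54898190 on chromosome 14. Anxa2, a calcium-dependent membrane binder, had 0.239 and 0.311 at 231 reads, and Thbs1, the matrix protein thrombospondin 1, had 0.207 and 0.221 at 214 reads. A further site of Prelid1 had 0.215 and 0.305 at 220 reads. Ywhae, Laptm5 and Rnf130 had means of 0.269, 0.261 and 0.217. The mean level of each of these 7 sites was within 0.08 of the lowest listed level of 0.2.

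The replicates differed by a median of 0.072 in level, and by more than 0.2 at 12.5% of the sites. The median difference was 0.082 where under 70% of the reads were used and 0.056 where more were used. The variance between replicates was 0.854 times that of binomial counting at the reads used, with sites below 0.2 in either replicate absent from the table. At 50 or more covering reads the widest gap was in Mcm5, a subunit of the replicative helicase, with 0.213 and 0.909 from 10.7 of 74 reads. Repin1, a zinc finger protein, followed with 0.3 and 0.93, and Colgalt1, a collagen galactosyltransferase, with 0.4 and 1.0. Itgam, the integrin CD11b of myeloid cells, had 0.234 in both replicates at 132 reads, and the translation scaffold Eif4g1 had 0.364 in both at 127. Slc6a6, the taurine transporter, had 0.554 in both at 124 reads.

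**Figure D4:**
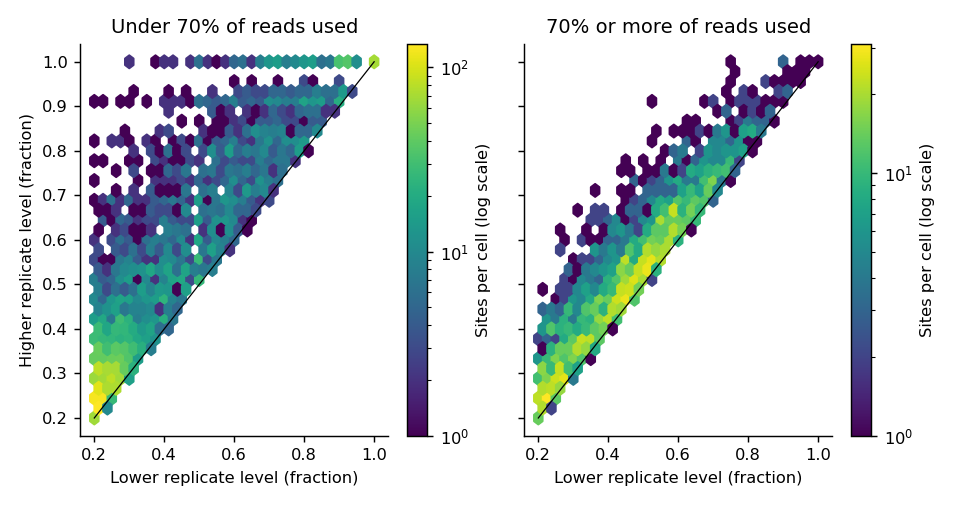
Lower against higher replicate level of each site, with the colour giving the number of sites per cell on a log scale. The line marks equal levels. The left panel (under 70% of reads used) is wider about it, with a median difference of 0.082, than the right panel (70% or more), with 0.056.

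At the limits of the selection, 438 sites with exactly 30 covering reads had a median level of 0.495, and 415 sites with 29 reads, just outside, had 0.516. The 387 sites whose nearest listed neighbour was 11 nt away had 0.478, and the 462 otherwise eligible sites at 10 nt had 0.477. The nearest listed site on the same strand was a median of 25 nt away (quartiles 16 and 45), more than 50 nt at 1542 sites and more than 1000 nt at 179. On the plus strand the most isolated site was in Swap70, a Rac-binding signalling protein, 33944 nt from the next, with 0.231 and 0.281. Tmem164, which encodes a transmembrane protein, had 0.924 and 1.0 at a distance of 18961 nt, from 13.5 of 53 reads. Scamp2, a vesicle membrane protein, had 0.75 and 0.8 at 18097 nt. Isolated sites thus included both low and high levels.

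The clustered sites had a higher median level, 0.480 (quartiles 0.337 and 0.650), at a median of 37 covering reads against 41. The direction depended on the share of reads used: the clustered median was 0.500 against 0.384 where it was under 70%, and 0.461 against 0.487 where it was 70% or more. Within the 2207 genes that held both kinds, the median difference of isolated minus clustered sites was -0.025, with isolated sites lower in 1220 genes and higher in 985. Sites of 1 gene come from the same libraries and are not replicates, so no test was made.

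Nearly all sites were on the plus strand of the chromosome, 6905 against 74 on the minus strand (98.9%, exact 95% interval 98.7 to 99.2%). The site strand was the strand of the gene for all 5713 site and label combinations in which RefSeq gave one strand. The plus-strand share was 99.1% over all listed positions and 97.0% at clustered sites, so it is a trait of the whole table. All 74 minus-strand sites had under 70% of their reads used, and their median level was 0.250 (quartiles 0.225 and 0.270). They were far from other listed sites of the minus strand, with a median distance of 7211 nt, and made up 52 of the 179 sites isolated by more than 1000 nt. Distances were measured within a strand, and the list held 4761 minus-strand against 502191 plus-strand positions. Their distance to plus-strand positions was not computed.

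The deepest minus-strand site was in Nfkbia, the inhibitor of NF-κB, with 0.231 and 0.233 from 25.9 of 124 reads, at position 55491757 on chromosome 12. It was the only listed site of the gene. Ier5, an immediate early gene, had 0.271 and 0.277 from 51.1 of 109 reads. Cast, the calpain inhibitor calpastatin, had 0.2 and 0.25 from 8.89 of 97 reads. The translation regulator Eif4g2 had 0.2 in both replicates from 50 of 97. Sqstm1, the autophagy receptor p62, had 0.2 and 0.3 from 12 of 92 reads. The Cast level rested on a mean of 2 unconverted reads and that of Sqstm1 on 3, and the lowest listed level is 0.2. Of the 74 sites, Gcg had the highest level, 0.553.

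Within genes the sites were spread much like all listed sites, with the largest share at the 3′ end. Of 6996 combinations of site and gene, 30.9% were in the final decile of the gene's span (exact 95% interval 29.8 to 32%), against 28.8% over all annotated listed sites and 29.8% for clustered sites. Within 500 nt of the gene end lay 8.79% against 6.57% over all and 9.84% for clustered sites. That decile held 32.6% of the combinations with under 70% of reads used and 27.6% of the others. The first decile held 7.58% against 8.35% over all, and its sites had the highest median level, 0.55, against 0.41 to 0.459 in the other deciles. Exon, intron and UTR positions were not analysed here.

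The sites fell in 3096 of the 7821 gene labels with any listed site (39.6%). Of these, 1283 labels held 1 site, 1524 held 2 to 4 and 289 held 5 or more. Labels with a site had a median of 93.5 listed positions against 43 over all labels. Neither gene length nor gene strand was taken into account, here or in the gene lists below. Protein-coding genes held 6953 of the combinations and long noncoding RNAs 37.

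Arrb1, which encodes the receptor adaptor beta-arrestin 1, held the most, 13 of its 208 listed positions, on chromosome 7 from 99535756 to 99606301. Their levels ran from 0.242 to 0.85. The 4 Arrb1 sites with 70% or more of the reads used had 0.474 to 0.595 at 72 to 88 reads. The other 9 had 0.242 to 0.85 at 33 to 59 reads. The Arrb1 site at 99603155 had 0.25 in both replicates, and the one at 99606049 had 0.7 and 1.0.

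Ahnak, a very large membrane scaffold protein, held 12 sites (levels 0.241 to 0.539), and Tpr, a nuclear pore basket protein, held 11 (0.206 to 0.689). In Tpr, 9 of the 11 sites had 70% or more of the reads used. Ubr4, an E3 ubiquitin ligase, also held 11 (0.249 to 0.639). Prpf8, the central protein of the spliceosome, held 10 (0.258 to 0.618), 8 of them with under 70% used. The remaining genes with 10 sites were Nktr, Ckap5, Cad, Ncoa3 and Abca2. In Ncoa3, a nuclear receptor coactivator, all 10 sites had under 70% used and levels from 0.225 to 0.923.

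Among genes of RNA and DNA 5-methylcytosine writers, erasers and readers, 7 of the 19 with a listed site held a selected one, 26 sites with a median level of 0.504. The share of genes, 36.8%, was close to the 39.6% over all labels. Nsun2 itself had 96 listed positions and 1 selected site, at position 69634108 on chromosome 13, with 0.286 and 0.364 (0.325 ± 0.0552, SD, n = 2) at 37 reads. Tet2 and the tetraspanin gene Tspan13 had 1 listed position each, Mbd6 had 3 and Alyref 4, with 0 selected sites in each gene. Ybx1 had 0 listed positions. Of all listed positions 99.1% were on the plus strand, and the strand of these genes was not looked at here. Their low counts are therefore not evidence that they lack such sites. Uhrf1, which brings DNA methyltransferase to replicated DNA, held 5 sites, of which the highest had 0.91 and 1.0 from 11.5 of 45 reads.

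Dnmt3a, a de novo DNA methyltransferase, held 7 sites, the most of that list. Along the gene on chromosome 12 their mean levels were 0.297, 0.329, 0.404, 0.625, 0.393, 0.522 and 0.466. The Dnmt3a site at 3908148 had 0.394 and 0.414, and the one at 3912184 had 0.514 and 0.53, both with over 80% of reads used. The site at 3913790 had 0.25 and 0.682. Replicates thus differed by 0.016 to 0.02 at the first 2 of these sites and by 0.432 at the last.

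Ribosomal and translation genes were also represented. Of 55 cytosolic ribosomal protein genes with a listed site, 20 (36.4%, against 39.6% over all labels) held 31 selected sites with a median of 0.49. The highest were in Rpl24 (0.81 and 1.0), Rps9 (0.786 and 0.926) and Rpl22 (0.8 and 0.9). The Rps9 site used 79.2% of its reads, and its reference base was not read. Ribosomal protein genes have near-identical pseudogene copies, so the origin of their reads is uncertain. Of 31 translation factor genes, 16 (51.6%) held 38 sites with a median of 0.399, the highest being in Eif1 (0.918 and 1.0), Eif5 (0.909 and 0.933) and Eif4b (0.722 and 1.0). Splicing factor and hnRNP genes held 86 sites in 27 of 47 genes (57.4%) with a median of 0.372, led by Hnrnpa3, Taf15 and Srsf5 at 0.955, 0.915 and 0.846.

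In metabolic genes the median was 0.316 for the TCA cycle and respiratory chain (22 sites in 11 of 23 genes, 47.8%). It was 0.444 for glycolysis (21 sites in 8 of 20, 40%) and 0.54 for cholesterol and fatty acid synthesis (40 sites in 16 of 24, 66.7%). The share over all labels was 39.6%. The highest glycolysis sites were in Pkm, the pyruvate kinase, with 0.613 and 0.641, and in the lactate exporter Slc16a3, with 0.612 and 0.638. They used 82.2% and 85.3% of their reads, and their reference base was not read. In the lipid list, Scd2, a stearoyl-CoA desaturase, had 0.918 and 1.0, and Insig1, which retains the sterol sensor in the endoplasmic reticulum, had 0.801 and 0.957. Srebf2, the transcription factor of cholesterol synthesis, had 0.867 and 0.883. Atp5b, the catalytic subunit of ATP synthase, had 0.91 and 1.0, above the rest of the respiratory list, but on 10.5 reads used.

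Genes of the leukemia and stem cell program held 68 sites in 17 of 30 genes (56.7%, against 39.6% over all labels), with a median of 0.462. Lmo2, a transcriptional adaptor of blood stem cells, had 0.875 and 0.937 at its highest site, and Cbfb, the partner of RUNX1, had 0.857 and 0.889. Cdk6, a cell cycle kinase, held 8 sites, the most of this list and of the cell cycle list, with mean levels of 0.26 to 0.677. Its deepest 2 sites, at 3521286 and 3521201 on chromosome 5, were at 108 and 103 reads and 85 nt apart. The Cdk6 site at 3521286 had 0.429 and 0.467 with 80.6% of reads used, and the one at 3521201 had 0.286 and 0.63 with 27.6%.

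Chromatin enzymes held 80 sites in 23 of 51 genes (45.1%, against 39.6% over all labels), with a median of 0.435. Ehmt2, a histone H3 lysine methyltransferase, held 9 sites on chromosome 17, the most of this list. The 5 Ehmt2 sites with over 80% of reads used had 0.522 to 0.803, and the 4 others 0.249 to 0.56. Signalling genes downstream of SCF, IL-3 and IL-6 receptors held 51 sites in 19 of 28 genes (67.9%), with a median of 0.374. Pim1, a kinase induced by cytokines, had 0.91 and 1.0, and the feedback inhibitor Cish had 0.8 and 1.0. Inpp5d, the lipid phosphatase SHIP1, held 6 sites with means of 0.212 to 0.56. RAS and MAPK genes held 35 sites in 14 of 25 genes (56%) with a median of 0.416, the highest in the MAPK phosphatase Dusp4 (0.864 and 0.95, 32 reads used). The Dusp4 site used 84.1% of its reads, and its reference base was not read.

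Immune genes are of interest because the series title names tumor immunity. Checkpoint and evasion genes held 24 sites in 10 of 19 genes (52.6%, against 39.6% over all labels). Their median of 0.303 was the lowest of the lists with more than 10 sites. Cd47, the phagocytosis inhibitor, had 0.789 and 0.811 from 37.5 of 46 reads at position 49903302 on chromosome 16, and Tgfb1 had 0.77 and 1.0 from 11.3 reads. Cd274, which encodes PD-L1, held 2 sites on chromosome 19, with 0.541 and 0.643 at 29373769 and 0.238 and 0.386 at 29385579. Both Cd274 sites had over 80% of reads used, and their reference base was not read, nor was that of the Cd47 site. Vsir, the checkpoint receptor VISTA, held 4 sites with means of 0.246 to 0.445.

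Antigen presentation genes held 19 sites in 9 of 22 genes (40.9%, against 39.6% over all labels), with a median of 0.414. The peptide-loading factor tapasin, Tapbp, held 6 of them, the highest at 0.714 and 0.918. H2-D1 had 0.888 and 0.926 and H2-Eb1 had 0.718 and 0.818 at their highest sites, but histocompatibility genes share near-identical sequence, so these reads may come from related copies. The H2-D1 site is at a reference guanine, so its level is not a share of unconverted cytosines of the reference. The H2-Eb1 site used 85% of its reads, and its reference base was not read. Interferon response genes held 34 sites in 13 of 23 genes (56.5%) with a median of 0.487. Adar, the adenosine deaminase that edits RNA, held 6 with means of 0.283 to 0.743, all with under 70% of reads used.

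Marker genes of the labelled cell type and of other cells were counted in the same way. Myeloid granule and differentiation genes held 13 sites in 6 of 21 genes (28.6%, against 39.6% over all labels) with a median of 0.471, including 2 in Mpo, the granule enzyme myeloperoxidase, with 0.769 and 0.811 at the higher one. Homing and adhesion genes held 27 sites in 10 of 27 genes (37%) with a median of 0.392, the highest in the integrin Itga4 with 0.924 and 1.0 on 13.5 reads used. Of the markers of other cells, T and NK cell genes had 0 sites in 2 genes with a listed position, B cell genes had 0 listed positions, and stromal genes had 1 site, in Vim, in 1 of 2 genes. Erythroid and megakaryocyte genes held 10 sites in 4 of 5 genes (80%, the highest share of the lists), 5 of them in the transferrin receptor gene Tfrc. Pancreatic genes held 2 sites in 2 of 13 genes (15.4%), in Gcg and in Ins1, an insulin gene, which had 0.435 and 0.563 at 50 reads. The source of those reads was not tested.

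**Figure D5:**
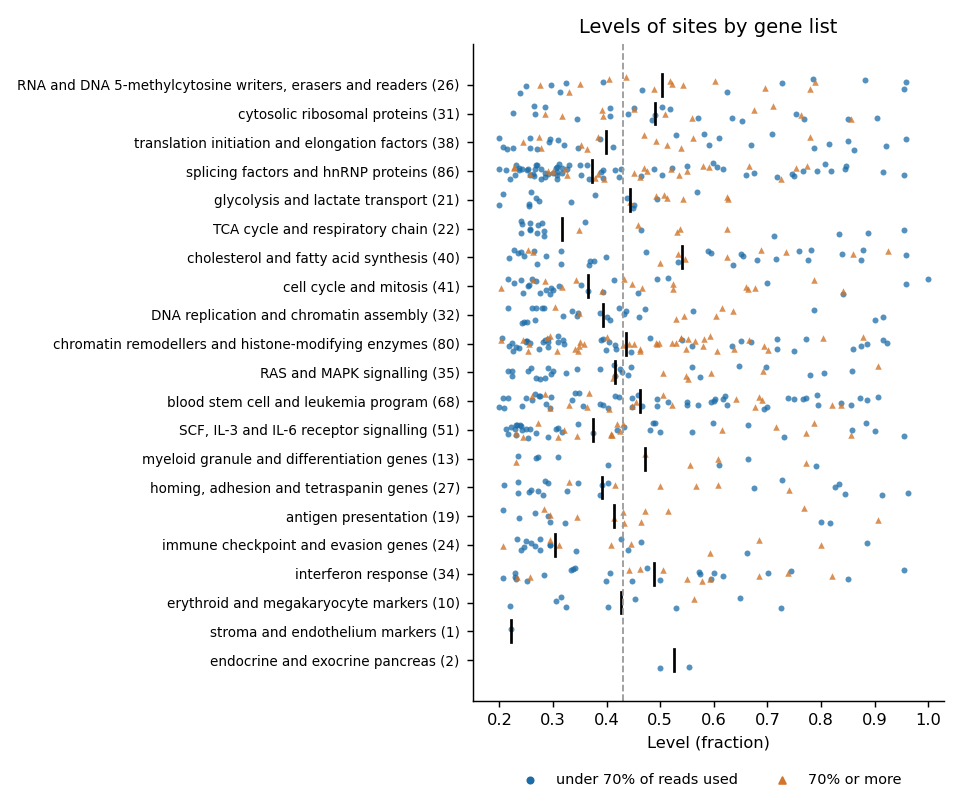
Level of each site in 21 gene lists, with the number of sites in parentheses. Circles had under 70% and triangles 70% or more of their reads used, black bars are list medians, and the dashed line is the median of all 6979 sites, 0.431. Within each list of more than 10 sites, single sites range from near 0.2 to above 0.6, wider than the distance between list medians.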

How the data were processed

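Bisulfite-converted poly(A) RNA of 2 WT and 2 Tet2 KO libraries was sequenced. The build is mm10, per the submitters' processing notes; neither aligner nor site caller is named in the sources used here. Per position, the deposited table has read numbers averaged over the KO replicates and rounded by the authors to whole numbers (unit score, as are their SDs), the authors' level as a fraction, the number of replicates with a call, and combined p-values deposited by the authors (for the methylation state at most 2.48e-07 among the selected sites). A deposited normalized coverage was not used, and 0 columns came from another series. The library totals were not used here, so depth is given per site.

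Reads used were computed as unconverted reads divided by level, an approximation since the reads are rounded means. The deposited SD was taken as the population SD, because with it 0 of 72227 replicated sites had a replicate below 0.2 or above 1, and was converted to a sample SD. The planned KO against WT test was not made, for lack of WT values. No test was made between sites, which are not replicates. Shares carry exact Clopper-Pearson 95% intervals, which cover counting error only. Positions in gene spans came from RefSeq GRCm38.p6, in which 3091 labels with a site matched (106 by synonym). Calculations used Python 3.11.15, pandas 2.3.3, numpy 2.4.6, scipy 1.17.1 and matplotlib 3.10.9. The isolation step and the recovery of replicate levels were checked on simulated data.

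The sites and the 23 gene lists were chosen with earlier results of these data known. The text names the 10 highest sites by level and the 10 by coverage (1 per gene), the 10 genes that held most sites, up to 3 genes per list with the highest site, the 3 largest and 3 smallest replicate differences at 50 or more reads, the 5 deepest minus-strand sites, and always Tet2, Tspan13, Nsun2, Alyref, Ybx1 and Mbd6. The division at 70% of reads used, the printed windows, the most isolated sites, the highest sites by reads used, and Dnmt3a, Cdk6, Ehmt2, Inpp5d, Cd274, Vsir and Adar were chosen after their values were seen, as were Arrb1's single sites. Some genes named by the rule are not described. Alternatives were other limits of coverage, isolation, replication, reads used and p-value, and leaving out pancreatic genes.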

Additional observations from a re-analysis of the deposited data

How the results depend on the processing

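The number of sites was 12419 at a coverage minimum of 20 reads, 2012 at 50 reads, 1542 with no listed site within 50 nt, 31702 with a call in 1 replicate, 2053 with 30 or more reads used, and 4649 and 2330 with under 70% and with 70% or more of reads used, a division chosen after the data were seen. The median level moved to 0.335 at 50 reads and 0.487 with 70% or more used. The plus-strand share was 99.3% at 20 reads, 98.3% at 50 reads, 99.2% and 95.8% at 5 and 50 nt, 95.6% with 1 call, 99.6% with 30 reads used, and 98.4% and 100% below and from 70% used. The last-decile share was 29.6% at 50 nt, 27.8% with 30 reads used, and 32.6% and 27.6% below and from 70% used. The median share of reads used was 80.4% with 1 call and 81.6% with 30 reads used. The isolated minus clustered median level was -0.049 over all sites, -0.106 at 50 reads, -0.116 below 70% used and, reversed, 0.026 from 70% used; the cause was not tested. A limit of 1e-06 on the combined p of the methylation state could remove none of the 6979 sites, because the highest deposited value was 2.48e-07. No paired analysis was possible because no WT or single-library values were in the table used here, and for the same reason leaving out each replicate was not run. The reference base was read only at 62 sites in promoter and hairpin windows, and most levels under 70% used rest on fewer than 20 reads.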

Other observations

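Not all sites lay in messenger RNA. Rn45s, which encodes the precursor of ribosomal RNA, held 5 sites on the plus strand of chromosome 17, although the libraries were made from poly(A) RNA. The Rn45s site at 39845338 had 1.0 in both KO replicates from 14 of 34 reads, and the one at 39844833 had 0.952 and 1.0 from 21.5 of 53. The Rn45s site at 39845381 had 0.652 and 0.75 at 139 covering reads, and those at 39843517 and 39843599 had means of 0.776 and 0.274. All 5 sites had under 70% of their reads used, and in that group high levels were those with few reads used. Of the 5 sites 4 were at 0.5 or above, against 36.6% of all selected sites with under 70% used. Ribosomal RNA has many gene copies, so the origin of these reads is uncertain, and Rn45s was singled out after its values were seen.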
